A study of Homo sapiens with 16 samples.

Results

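Cells of the line SH-SY5Y, grown from a human neuroblastoma, were exposed to the anthracycline doxorubicin, a drug given against this cancer. The response to doxorubicin was measured in 2 clones of these cells labelled TRPM2 KO, named KO11 and KO28. Of the 16 RNA-seq libraries of the study, 8 come from these clones. In each clone 2 libraries came from cells left untreated in regular medium and 2 from cells given doxorubicin for 24 h, so each group holds 4 libraries. The other 8 libraries come from the clones Scr13 and Scr16, which received a scrambled guide RNA. The dose was 0.3 µM by the sample labels and by the study's account of its sequencing, whereas the design text of the series has 3 µM. All 4 clones received the pCas9-guide vector and a donor vector with GFP and puromycin resistance, were selected in puromycin and were grown from single cells. A difference between genotypes therefore rests on 2 clones against 2 clones. The study calls the 2 libraries of a clone and treatment biological replicates. The p-values measure only the spread among the libraries at hand, between replicates and, where clones are fitted together, between their responses.

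Doxorubicin slips between the bases of DNA and traps topoisomerase II on it, which leaves double-strand breaks. The break signal stabilises the transcription factor p53, and p53 turns on genes for cell cycle arrest, DNA repair and cell death. One of these, CDKN1A, encodes the CDK inhibitor p21. When CDKs are inhibited, pocket proteins hold E2F target genes of S phase and, as the DREAM complex, genes of G2 and mitosis in a repressed state. TRPM2 is a calcium-permeable channel of the plasma membrane that opens on binding ADP-ribose.

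The guide RNA of the KO clones is shown because it fixes where TRPM2 was to be cut. It matches the + strand of chromosome 21 of GRCh38 at chr21:44353718-44353737, in coding sequence of TRPM2 (exon 2 of ENST00000300482, exon 1 of ENST00000397928). The 20 guide bases are in lower case and the PAM, the bases that Cas9 needs beside its target, is in capitals.
TRPM2 guide target: gaggaaagctggctcggagcAGG

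TRPM2 (ENSG00000142185) had 35 and 37 reads in untreated KO11 and 21 and 30 in untreated KO28. After doxorubicin it had 19 and 29 reads in KO11 and 21 and 11 in KO28. In Scr13 the counts were 3 and 2 without treatment and 1 and 1 after doxorubicin, and in Scr16 they were 0 and 0, then 14 and 6. Without treatment, TRPM2 reads were therefore higher in every library labelled KO than in every Scr library. Reads were counted per gene, so they cannot tell an edited transcript from an intact one and do not test the label. Per the labels, the edit was checked in the single-cell clones with RT-PCR, sequencing and a Western blot, which are not analysed here. The doxorubicin comparison is made inside these 2 clones and does not depend on the label. The log2 fold change of TRPM2 with doxorubicin was -0.40 (SE 0.27, adjusted p = 0.343 with limma). An exact two-sided permutation of the treatment within each clone gave p = 0.0556, the smallest p that its 36 assignments allow.

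Between 13611339 and 17771010 reads per KO library fell on genes, with a median of 15735288.5 untreated and 15976793 after doxorubicin. Values are given as normalized CPM, reads of a gene scaled to the size of its library and corrected for library composition. A count of 0 allows up to 3 reads, which is between 0.165 and 0.219 CPM, and this floor covers counting error only. The first principal component, 40.2% of the variance over the genes tested, set the untreated libraries (-24.0 to -20.3) apart from the doxorubicin libraries (17.8 to 25.2). The untreated libraries of KO28 stood apart from the rest, replicate 2 on the second component (34.1, other libraries -16.5 to 6.21) and replicate 1 on the third (-31.3). Among 11466 genes with a mean of at least 5 CPM, 172 differed at least 2-fold between these 2 replicates, against 29 to 56 in the other pairs of replicates. Counts without each of them are therefore given below.

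Markers of noradrenergic neuroblastoma cells were present. Of 13 such markers, 12 had a mean of at least 1 CPM, among them the transcription factor HAND2 (1304 ± 18 CPM untreated, SD, n = 4). TH, the first enzyme of catecholamine synthesis, was under the level tested. The summed level of the 13 markers was between 6448 and 7182 CPM in every KO library. Markers of Schwann cells (1.505 to 3.08 CPM in sum), endothelium (0 to 1.75) and blood (0.0648 to 1.02) were near 0. The 10 mesenchymal markers summed to between 356 and 459 CPM, and the most abundant of them were TWIST1 (160.2 to 212 CPM) and COL3A1 (127 to 215 CPM).

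Doxorubicin changed 2873 of the 14513 genes tested, 19.8%, at an adjusted p under 0.05. Of these, 1546 rose (10.7% of the genes tested) and 1327 fell (9.14%). The balance turned in 2 other settings. With scaling to library size alone 1428 rose and 1468 fell, and among genes with a mean of at least 10 CPM 1199 rose and 1307 fell. Of the genes tested, 55 were under 1 CPM in every untreated library and passed the filter (at least 1 CPM in at least 4 of the 8 libraries) only through the treated ones, and 46 of the 1546 that rose were among these. A wider group of 1429 genes had fewer than 4 untreated libraries at 1 CPM, and 188 of them rose. Of the genes that rose and are named below, CSPG4, EGR2, EPPK1, FAS, FOSL1, GLS2, IRF9, LIF, NECTIN4, PURPL and TNFRSF10A belong to it, so they met the filter with the help of the treated libraries. Of those that fell, CHGA, COL1A2 and PTPRD had fewer than 4 treated libraries at 1 CPM. The test was limma on log2(CPM + 1) with the clone as a block. Rises were larger than falls. The median log2 fold change was 0.60 among genes that rose and -0.38 among those that fell, and the change was at least 2-fold for 309 genes that rose and 37 that fell. All 2873 genes had the same sign in KO11 and KO28, as did 68.3% of all genes tested. The calls were made on both clones together, which favours genes of 1 sign. The agreement among called genes is therefore not separate evidence that the clones agree. Over all genes the median log2 fold change was 0.0023. The untreated and doxorubicin libraries did not overlap for 2895 genes, 19.9%. Without KO28 untreated replicate 1, 2523 genes were called, and without replicate 2, 2957. KO28 alone gave 1051 calls and KO11 alone 2233.

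**Figure D1:**
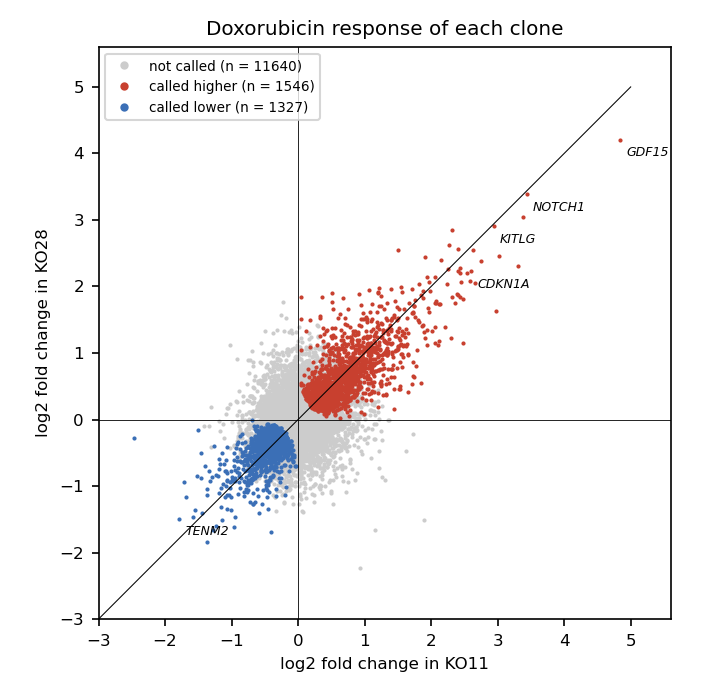
Log2 fold change with doxorubicin in KO11 (x axis) and KO28 (y axis), 1 point per gene tested. Grey points are genes not called, red and blue points are the 1546 genes called higher and 1327 called lower, and the line marks equal change in both clones.

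Genes that p53 activates rose. All 13 tested p53 target genes of cell cycle arrest rose, with a median log2 fold change of 1.63. This list and those below were chosen with earlier results of these data known. CDKN1A (ENSG00000124762, chr6:36676460-36687339) had 124, 123.2, 158 and 141 CPM in the untreated libraries, in the order KO11 replicates 1 and 2, then KO28 replicates 1 and 2. After doxorubicin it had 780, 736, 671 and 734 CPM. Every treated library was thus above every untreated one, with a log2 fold change of 2.42 (SE 0.08, adjusted p = 3.54e-18 with limma). GDF15, a secreted stress cytokine, had 7.68, 3.87, 7.90 and 8.16 CPM untreated and 193, 177, 168 and 163 CPM after doxorubicin. Its log2 fold change, 4.52 (SE 0.15), was the largest among genes called with a mean of at least 5 CPM. BTG2, an antiproliferative gene, rose from 29.4 ± 3.9 to 115 ± 6.4 CPM. The kinase gene PLK2 rose from 6.65 ± 1.4 to 38.4 ± 3.4 CPM, and SESN2, a sensor of amino acid supply, from 20.1 ± 1.4 to 64.8 ± 5.5 CPM. The smallest rise of the group was that of CCNG1, by 0.68.

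Genes of the p53 feedback loop moved both ways. Of 12 feedback and negative regulators tested, 4 rose and 2 fell, with a median of 0.06. MDM2, the ubiquitin ligase that degrades p53, had 136, 141, 122 and 117 CPM untreated and 358, 320, 312 and 294 CPM after doxorubicin. Its log2 fold change was 1.31 (SE 0.07). PPM1D, a phosphatase that switches the damage signal off, rose by 1.09, and ZMAT3, an RNA-binding protein, by 1.45. These are transcript levels, and p53 protein was not measured in these libraries.

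**Figure D2:**
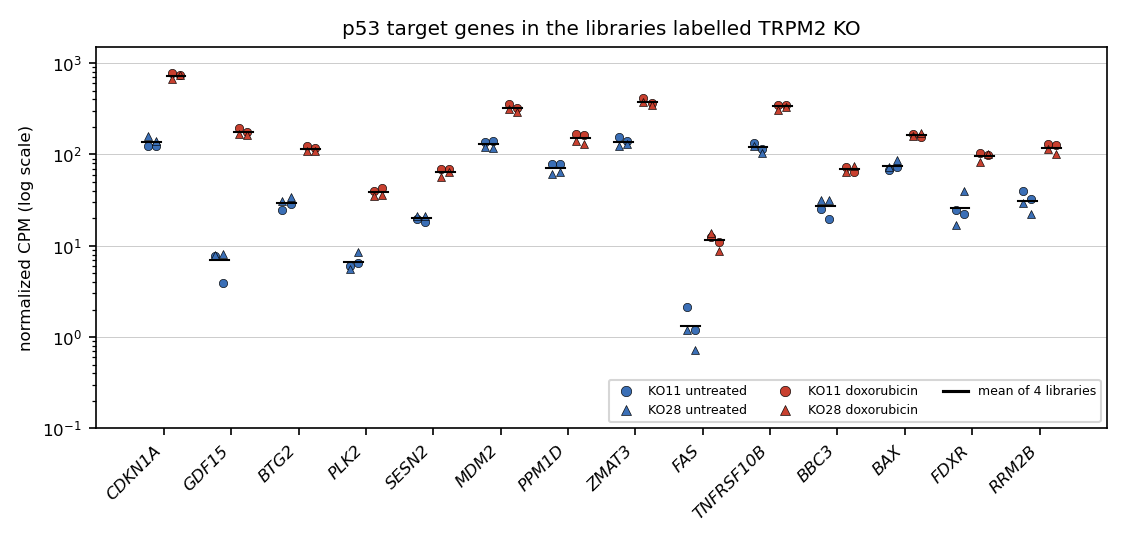
Normalized CPM on a log axis for 14 p53 target genes in the 8 libraries labelled TRPM2 KO, blue for untreated and red for doxorubicin, circles for KO11, triangles for KO28 and a black line for the mean of 4. CDKN1A lies between 123.2 and 158 CPM untreated and between 671 and 780 CPM after doxorubicin, and the groups do not overlap for any gene shown.

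Death genes under p53 rose in 10 of 12 tested, and none fell, with a median of 1.38. Of the 10, FAS and TNFRSF10A had fewer than 4 untreated libraries at 1 CPM, so they met the filter with the help of the treated libraries. FAS, the death receptor of Fas ligand, had 2.15, 1.21, 1.21 and 0.73 CPM untreated and 12.5, 11.04, 13.8 and 8.81 CPM after doxorubicin (log2 fold change 2.45, SE 0.24). Among the TRAIL receptors, TNFRSF10B rose from 119 ± 13 to 335 ± 20 CPM and TNFRSF10A, with at most 1.11 CPM in an untreated library, by 2.02. Of the genes acting at mitochondria, BBC3 (the BH3 protein PUMA) rose by 1.35, BAX, which opens the outer membrane, by 1.13, and FDXR, the ferredoxin reductase of mitochondria, by 1.93. Both genes of the group that were not called are named here after their values were seen. They are PMAIP1 (NOXA), at 24.0 ± 2.7 CPM untreated and 29.2 ± 1.8 CPM treated (0.28, adjusted p = 0.120), and APAF1, a part of the apoptosome (0.13). PMAIP1 passed without KO28 untreated replicate 2 (0.37, adjusted p = 0.0338).

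In the wider BCL2 family, 3 of 14 genes rose (21.4%) and 1 fell (7.14%), with a median of 0.14. Over all genes tested, 10.7% rose and 9.14% fell. Beside BAX and BBC3, BOK, another pore-forming member, rose from 13.3 ± 2.6 to 24.0 ± 1.8 CPM. BID, which links death receptors to mitochondria, fell from 41.4 ± 1.1 to 29.8 ± 3.8 CPM. Of 16 tested p53 targets in repair and metabolism, 12 rose and none fell, with a median of 1.09. RRM2B, the p53-inducible subunit of ribonucleotide reductase, had 39.8, 32.6, 29.5 and 22.3 CPM untreated and 132, 127, 116 and 101 CPM after doxorubicin. GLS2, a mitochondrial glutaminase with fewer than 4 untreated libraries at 1 CPM, rose by 2.08. Among 5 long noncoding RNAs tied to p53, 3 rose, including NEAT1, the scaffold of paraspeckles, by 1.34 and PURPL by 2.14. PURPL also had fewer than 4 untreated libraries at 1 CPM. Of 5 CDK inhibitors, CDKN1B (p27) rose from 83.5 ± 5.7 to 118 ± 8.5 CPM next to CDKN1A, and CDKN2C (p18) fell by 0.36.

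The other largest rises lay outside these lists. NOTCH1, the Notch receptor, had 5.97, 5.68, 8.31 and 3.21 CPM untreated and 88.9, 59.6, 71.0 and 58.5 CPM after doxorubicin (log2 fold change 3.41, SE 0.18). INPP5D, the inositol phosphatase SHIP1, rose from 7.31 ± 0.95 to 75.7 ± 7.0 CPM. KITLG, the ligand of the receptor KIT, rose from 11.8 ± 1.2 to 96.8 ± 12 CPM, while KIT itself fell from 8.49 ± 2.9 to 3.00 ± 0.43 CPM. The groups did not overlap for any of these genes. The adhesion gene NECTIN4 (2.81), the cytoskeletal linker EPPK1 (2.74), the proteoglycan CSPG4 (2.595) and the sodium channel subunit SCN4B (2.56) came next on the log2(CPM + 1) scale. Their place in the order depends on the pseudocount, which holds down the change of genes near 1 CPM. Over 15 settings the log2 fold change lay between 1.67 and 3.37 for NECTIN4, between 1.60 and 3.54 for EPPK1, between 1.35 and 3.33 for CSPG4 and between 1.98 and 2.76 for SCN4B. CSPG4 overlaps genes on the opposite strand, as FAS does with ACTA2. The library kit kept strand, but whether counting used it is not given in the sources used here. PRICKLE1, LRRC4, PTPRD and TP53I3, described below, also overlap genes on the opposite strand. So do many other genes named here, among them MDM2, TNFRSF10B, GLS2, CHEK1, BRCA1, KIF20A, NBN, TOP2B and TENM2.

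Genes of DNA replication fell. Of 36 genes of the replication machinery, 27 fell and none rose, with a median of -0.43. MCM6, a subunit of the replicative helicase, had 205, 204, 199 and 184 CPM untreated and 86.2, 108, 98.3 and 92.2 CPM after doxorubicin. That is a log2 fold change of -1.04 (SE 0.08, adjusted p = 1.61e-10 with limma), with no overlap between the groups. MCM5 fell by 0.95, and GINS2 and CDC45, which join the helicase at firing origins, fell by 0.83 and 0.82. Of 20 nucleotide synthesis enzymes 11 fell and none rose, with a median of -0.26. TK1, thymidine kinase, fell by 0.61, DUT, which clears dUTP, by 0.57, and RRM2, the S phase subunit of ribonucleotide reductase, by 0.43. RRM2 and RRM2B thus moved in opposite directions.

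Among G1/S cyclins, E2F factors and pocket proteins, 10 of 22 genes fell and 1 rose, with a median of -0.26. E2F1 had 111, 101, 108 and 133 CPM untreated and 74.8, 76.2, 62.4 and 78.3 CPM after doxorubicin (log2 fold change -0.62, SE 0.09). E2F2 fell from 80.5 ± 5.1 to 48.1 ± 6.4 CPM. Both encode activating E2F factors. CDC25A, a phosphatase that activates CDK2, fell by 0.51. E2F7, a repressor of the family, was the gene that rose, from 26.7 ± 2.6 to 41.7 ± 5.3 CPM.

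Genes of G2 and mitosis fell as well. Of 18 G2/M cyclins and kinases, 14 fell and none rose, with a median of -0.36. CCNB1, cyclin B1, had 131, 122, 135 and 147 CPM untreated and 63.8, 89.6, 69.2 and 90.0 CPM after doxorubicin (log2 fold change -0.78, SE 0.10). PLK1, the main mitotic Polo kinase, had 117, 140, 140 and 139 CPM untreated and 69.0, 83.0, 103 and 87.4 CPM after doxorubicin (-0.65, SE 0.09). The groups did not overlap for either gene. CDK1, the catalytic partner of cyclin B, was at 98.5 ± 8.1 and 93.2 ± 11 CPM, and its log2 fold change of -0.08 was not called. CKS1B, which binds CDKs, was called lower (-0.27, adjusted p = 0.0457). That call was lost without KO11 untreated replicate 2, KO11 doxorubicin replicate 1, KO28 untreated replicate 2 or either treated KO28 library, with values between -0.29 and -0.21.

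Of 35 kinetochore, spindle and cytokinesis genes, 30 fell and none rose, with a median of -0.37. CDC20, which activates the anaphase-promoting complex, had 92.4, 100, 119 and 137 CPM untreated and 48.2, 66.4, 60.2 and 68.2 CPM after doxorubicin (-0.87, SE 0.10). The kinesin KIF20A fell by 0.72, BIRC5 (survivin) by 0.70 and CENPE, a kinetochore motor, by 0.61. MKI67, the proliferation marker, fell from 1027 ± 82 to 781 ± 122.6 CPM. Of the 8 factors of the FOXM1, MYBL2 and MuvB group, which bind the promoters of such genes, 3 fell, with a median of -0.28. MYBL2 had 332, 347, 371 and 378 CPM untreated and 232, 233, 230 and 229 CPM after doxorubicin (-0.62, SE 0.07). FOXM1 fell from 309.6 ± 15 to 245 ± 12 CPM. It overlaps RHNO1 and ITFG2 on the opposite strand.

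**Figure D3:**
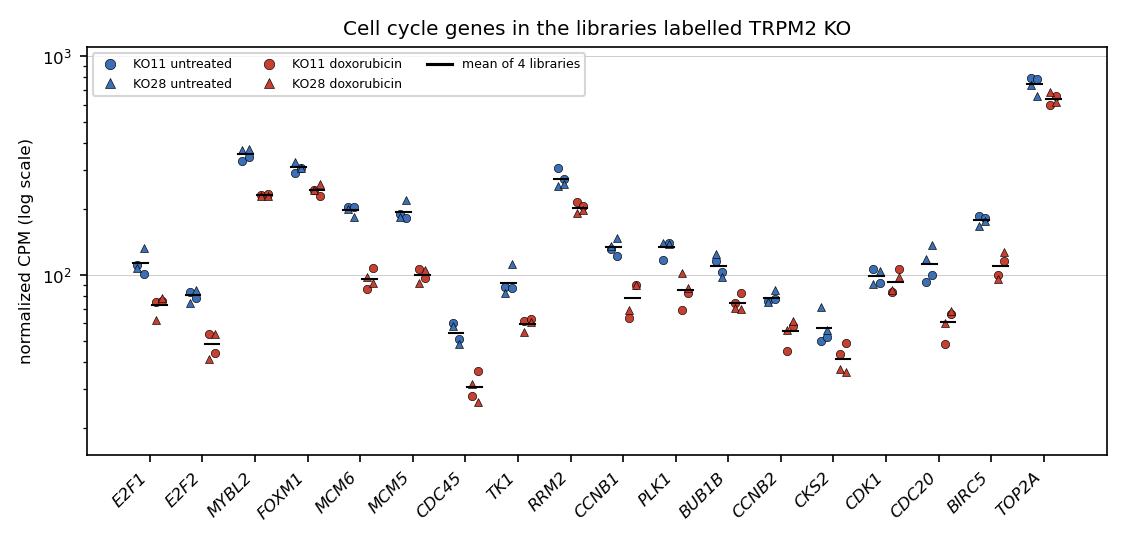
Normalized CPM on a log axis for 18 cell cycle genes in the 8 libraries labelled TRPM2 KO, blue for untreated and red for doxorubicin, circles for KO11, triangles for KO28 and a black line for the mean of 4. MYBL2 lies between 332 and 378 CPM untreated and 229 and 233 CPM after doxorubicin, while the groups of CDK1 and of TOP2A overlap.

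Promoters of mitotic genes are known to carry the cell cycle homology region (CHR), which DREAM and the FOXM1 complex bind, often downstream of CCAAT boxes. The 4 promoters below are those of G2/M cyclins and kinases that fell, hold the letters TTTGAA on either strand and had the smallest adjusted p. They come from RefSeq on GRCh38.p14, all on the + strand, and show the 150 bases before the annotated start. Capitals mark TTTGAA and CCAAT on either strand, so TTCAAA and ATTGG are capitals too.
PLK1, chr16:23678739-23678888: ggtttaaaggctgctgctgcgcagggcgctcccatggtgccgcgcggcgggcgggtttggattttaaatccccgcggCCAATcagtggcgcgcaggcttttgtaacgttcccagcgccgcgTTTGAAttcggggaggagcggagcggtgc
BUB1B, chr15:40160919-40161068: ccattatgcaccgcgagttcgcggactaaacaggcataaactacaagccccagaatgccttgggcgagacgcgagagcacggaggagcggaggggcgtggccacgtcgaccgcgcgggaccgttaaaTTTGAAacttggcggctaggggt
CCNB2, chr15:59104996-59105145: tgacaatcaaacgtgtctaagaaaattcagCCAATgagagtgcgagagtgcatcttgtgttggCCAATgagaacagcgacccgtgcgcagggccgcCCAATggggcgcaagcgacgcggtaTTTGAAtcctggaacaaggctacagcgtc
CKS2, chr9:89311045-89311194: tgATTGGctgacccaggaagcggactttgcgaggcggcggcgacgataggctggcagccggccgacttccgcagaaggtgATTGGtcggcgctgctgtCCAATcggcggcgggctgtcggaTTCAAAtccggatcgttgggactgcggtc

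TTTGAA begins 29 bases before the start in PLK1, CCNB2 and CKS2, and 23 bases before it in BUB1B. BUB1B, a spindle checkpoint kinase, fell from 110.2 ± 12 to 74.4 ± 5.8 CPM, and CCNB2, cyclin B2, from 78.4 ± 4.8 to 55.3 ± 7.1 CPM. CKS2, a CDK-binding protein, fell from 57.2 ± 9.5 to 41.3 ± 6.0 CPM (-0.46). Its fall was -0.14 in KO11 and -0.77 in KO28, and it was not called without KO28 untreated replicate 1 (-0.32, adjusted p = 0.0510).

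Promoters of 300 bases, from 250 before to 50 after the start, matched 10477 of the 14512 gene symbols tested. Each was searched on both strands for the letters TTTGAA, for the letters CCAAT, and for the core of an E2F site with the letters TTCCCGC. None of these motifs contains another. TTTGAA was in 9.22% of the promoters of the genes tested, in 14.4% of those of genes that fell and in 7.06% of those of genes that rose. It was in 24 of 30 promoters of kinetochore, spindle and cytokinesis genes and in 7 of 13 of the G2/M cyclins and kinases. CCAAT was in 36.8% of the promoters of all genes tested and in 42.3% of those of genes that fell. In the replication machinery, TTTGAA was in 0 of 30 promoters and the E2F core in 13 of 30. The E2F core was in 10.3% of the promoters of all genes tested, 14.9% of those of genes that fell and 7.49% of those of genes that rose. Among 28 promoters of genes that fell at least 2-fold, TTTGAA was in 2 and the E2F core in 2 (7.14% each). CCAAT was in 11 of them (39.3%). These are matches of letters, given as a description with no test.

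Of 27 genes of homologous recombination and the Fanconi anemia pathway, 13 fell (48.1%) and 1 rose (3.70%, against 10.7% of all genes tested), with a median of -0.29. BRCA1 had 137, 147, 132 and 125 CPM untreated and 86.3, 95.7, 91.5 and 85.3 CPM after doxorubicin (-0.58, SE 0.08). FANCD2, the ubiquitinated effector of the Fanconi pathway, fell by 0.45. RAD51C, a recombination mediator, was the gene that rose, from 39.9 ± 5.5 to 61.0 ± 5.6 CPM. In non-homologous end joining 3 of 15 genes fell and 1 rose (6.67%). XRCC6 (Ku70), which binds DNA ends, fell by 0.46.

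Among 20 checkpoint kinases and adaptors tested, 8 fell and none rose, with a median of -0.18. CHEK1 had 81.0, 86.0, 70.8 and 72.7 CPM untreated and 47.0, 55.2, 50.3 and 47.1 CPM after doxorubicin (-0.63, SE 0.09). NBN, part of the complex that senses breaks, fell by 0.63, PARP1, which makes poly(ADP-ribose) at breaks, from 664 ± 19 to 459.8 ± 31 CPM, and WEE1, the kinase that inhibits CDK1, by 0.36. ATR, the replication stress kinase, was at 36.2 ± 2.1 and 38.4 ± 4.0 CPM and was not called (0.08).

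Of 10 topoisomerases and phosphodiesterases that release them from DNA, 4 fell and none rose, with a median of -0.18. TOP2B, an isoform of topoisomerase II, had 446, 448, 395 and 369 CPM untreated and 347, 333, 354 and 323 CPM after doxorubicin (-0.28, SE 0.07). TOP1 fell by 0.37 and TDP1 by 0.44. TOP2A, the isoform of dividing cells, was at 742 ± 64 and 639 ± 40 CPM with overlapping groups (-0.21, adjusted p = 0.0466). Leaving out 1 library ended the TOP2A call for both untreated and both treated KO11 libraries, KO28 untreated replicate 1 and KO28 doxorubicin replicate 2, with log2 fold changes between -0.22 and -0.16. Of 12 anthracycline transporters and reductases, 3 rose (25%) and 1 fell (8.33%), against 10.7% and 9.14% of all genes tested. ABCC3, an efflux pump, rose from 1.402 ± 0.25 to 6.23 ± 2.0 CPM.

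**Figure D4:**
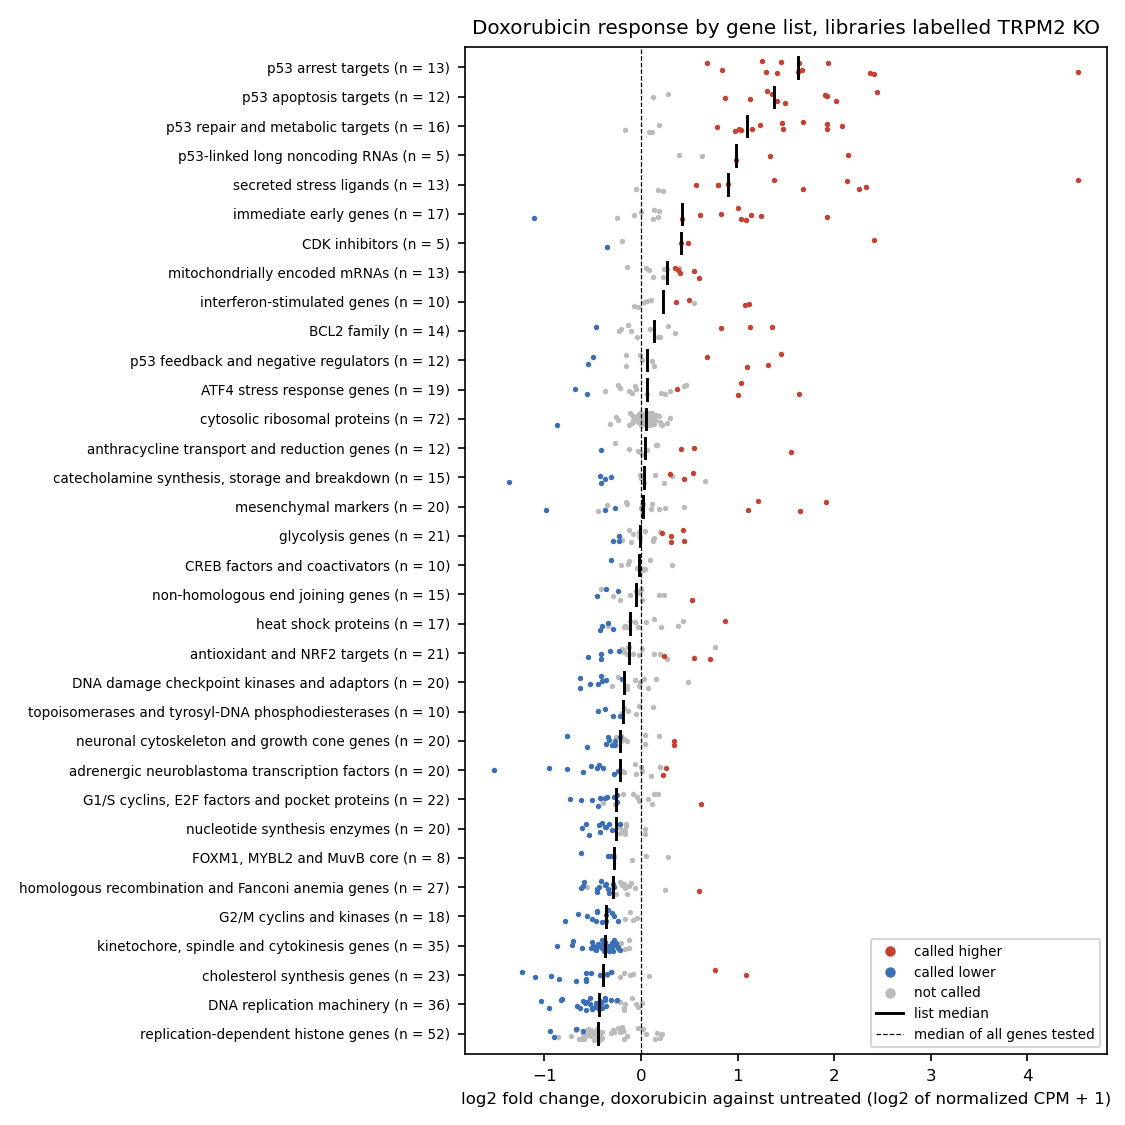
Log2 fold change with doxorubicin (x axis, on the log2(CPM + 1) scale) of each gene tested in 34 gene lists, ordered by the list median (black bar), with the number of genes tested in brackets and a dashed line for the median of all genes, 0.0023. Red points were called higher, blue points lower and grey points not called. Lists of p53 targets lie at the top and DNA replication, cholesterol synthesis and histone genes at the bottom.

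Genes for secreted stress ligands, GDF15 among them, rose in 10 of 13 tested, with none lower and a median of 0.90. Of the 10, 2 had fewer than 4 untreated libraries at 1 CPM, LIF among them. LIF, a cytokine of the interleukin 6 family, had 0.77, 0.91, 1.34 and 1.17 CPM untreated and 11.98, 6.77, 7.13 and 9.87 CPM after doxorubicin (2.26, SE 0.25). The chemokine CCL2 rose from 2.84 ± 1.6 to 15.2 ± 4.8 CPM and the chemokine CXCL12 rose from 3.53 ± 0.98 to 10.8 ± 2.8 CPM. Of 17 immediate early genes 9 rose and 1 fell, with a median of 0.42. FOSL1, a Fos family factor, rose by 1.93 and EGR2 by 1.24, each with 1 untreated library at 1 CPM or more, so both met the filter through the treated libraries. IER5 rose from 36.7 ± 4.1 to 81.7 ± 7.6 CPM. MYC was the gene that fell. It had 66.8, 60.3, 55.7 and 62.5 CPM untreated and 30.0, 29.2, 20.9 and 33.2 CPM after doxorubicin (-1.10, SE 0.12). Of 10 interferon-stimulated genes tested, 4 rose and none fell, and 13 more were under the level tested. IRF1 rose from 3.92 ± 1.1 to 9.76 ± 2.6 CPM. IRF9 was under 1 CPM in every untreated library (0.12 to 0.61 CPM) and between 1.19 and 2.85 CPM after doxorubicin. It passed the filter only through the treated libraries, so its rise was set by the filter, and 3 of the other 9 genes rose.

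Cholesterol synthesis genes fell in 12 of 23 tested and rose in 2, with a median of -0.39. INSIG1, which holds the sterol sensor in the endoplasmic reticulum, had 34.6, 32.9, 28.3 and 33.1 CPM untreated and 13.8, 15.2, 13.9 and 15.1 CPM after doxorubicin (-1.10, SE 0.13, adjusted p = 5.56e-07 with limma). All 4 treated libraries were under all 4 untreated ones.

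Of 19 genes of the ATF4 response, 4 rose (21.1%) and 2 fell (10.5%), with a median of 0.06. Over all genes tested, 10.7% rose and 9.14% fell. PHGDH, the first enzyme of serine synthesis, fell by 0.68, and SESN2, described above, is the member with the largest rise. Antioxidant genes rose in 3 (14.3%) and fell in 5 (23.8%) of 21 (median -0.13). GPX1, glutathione peroxidase, rose from 104 ± 18 to 170.2 ± 16 CPM and CAT, catalase, fell from 26.8 ± 4.0 to 18.0 ± 1.1 CPM. Of 17 heat shock proteins 1 rose (5.88%) and 4 fell (23.5%), including HSPA5, the chaperone of the endoplasmic reticulum, by 0.42. Glycolysis genes rose in 5 (23.8%) and fell in 3 (14.3%) of 21, with a median of -0.0090. Of 72 cytosolic ribosomal protein genes 1 fell and none rose, with a median of 0.05. Of 3 Schwann cell markers and 1 endothelial marker tested in the wider marker lists, none was called.

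Mitochondrially encoded mRNAs rose in 5 of 13 and none fell, with a median of 0.27. MT-CO1, a subunit of cytochrome oxidase, had 4167, 4899, 6816 and 5193 CPM untreated and 9144, 6019, 8950 and 7706 CPM after doxorubicin (0.60, SE 0.13). The groups overlapped for each of the 13 genes. The share of reads on the 10 most abundant genes, several of them mitochondrial, was 5.22% to 7.12% untreated and 6.89% to 8.87% after doxorubicin. Its part in these values was not tested. Histone genes of the replication-dependent type had a median of -0.45, but 4 of 52 fell (7.69%, against 9.14% of all genes tested) and none rose. H2AC14 fell by 0.95. These transcripts lack a poly(A) tail, and the libraries were made from poly(A) RNA.

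Genes of the neuroblastoma state shifted in part. Of 20 adrenergic transcription factors tested, 10 fell and 2 rose, with a median of -0.21. LMO3, a cofactor of this state, had 28.8, 27.7, 29.3 and 24.6 CPM untreated and 8.30, 9.34, 7.64 and 10.8 CPM after doxorubicin (-1.52, SE 0.15). LMO3 overlaps MGST1 on the opposite strand. MYCN fell from 16.6 ± 0.88 to 8.13 ± 1.1 CPM, SOX11 from 428 ± 80 to 248 ± 20 CPM and TFAP2B from 469 ± 28 to 309.6 ± 20 CPM. ISL1 fell by 0.39. The 2 factors that rose are not named in this paragraph. HAND2 (0.20, adjusted p = 0.0575) was just outside the threshold, and passed it without KO28 doxorubicin replicate 1 (0.21, adjusted p = 0.0376).

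Of 15 genes of catecholamine synthesis, storage and breakdown, 3 rose and 5 fell, with a median of 0.04. DBH, which makes noradrenaline, fell from 1849 ± 207 to 1426 ± 120 CPM and DDC, the decarboxylase before it, by 0.42. SLC18A1, a vesicular monoamine transporter, rose from 64.3 ± 4.6 to 94.2 ± 12 CPM. The call of CHGA (-1.37), a granule protein, rests on 1 library: KO11 untreated replicate 2 had 26.5 CPM and the other 7 KO libraries at most 2.597. Without it the log2 fold change was -0.56 (adjusted p = 0.294), and the call was also lost without KO11 doxorubicin replicate 1 (-1.28) or 2 (-1.02). CHGB, like CHGA 1 of the 13 noradrenergic markers, was called higher (0.31, adjusted p = 0.00658 with limma), with overlapping groups. Of those 13 markers, 1 rose and 5 fell. Neuronal cytoskeleton and growth cone genes fell in 9 of 20 and rose in 2 (median -0.21). MARCKS, an actin-binding substrate of protein kinase C, fell from 511 ± 16 to 348 ± 29 CPM.

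Mesenchymal markers rose in 4 (20%) and fell in 3 (15%) of 20 tested, with a median of 0.02. Over all genes tested, 10.7% rose and 9.14% fell. ACTA2, smooth muscle actin, had 27.3, 25.6, 30.9 and 33.0 CPM untreated and 123.1, 106, 104 and 115 CPM after doxorubicin (1.91, SE 0.10). The hyaluronan receptor CD44 rose from 5.43 ± 2.3 to 18.6 ± 4.6 CPM, the proteoglycan DCN by 1.21 and CCN1, a matrix protein, by 1.11. The 3 that fell were ZEB2, a zinc finger transcription factor, from 103 ± 3.8 to 79.8 ± 5.1 CPM, the collagen gene COL1A2 by 0.98 and the surface glycoprotein THY1 by 0.27. The groups did not overlap for these 3 genes. COL1A2 was at most 3.04 CPM, and its call was lost without any 1 of the 4 KO11 libraries (adjusted p 0.0575 to 0.107). The call of THY1 was lost without any 1 of the 4 KO28 libraries (adjusted p 0.0528 to 0.0761). Whether more cells of a type or more RNA per cell lies behind such a change cannot be told apart in bulk RNA.

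Among the 10 largest falls of genes with a mean of at least 5 CPM were, in order, those of TENM2 (-1.64), ENSG00000274442 (-1.60), LMO3, GRM8 (-1.46), LDLRAD4 (-1.42), LRRC4 (-1.32), PRICKLE1 (-1.32), PDGFRA (-1.25) and KIT (-1.21). TENM2, a teneurin of neuronal contacts, had 12.2, 8.89, 9.04 and 6.41 CPM untreated and 3.23, 1.57, 3.56 and 1.06 CPM after doxorubicin. GRM8, a metabotropic glutamate receptor, fell from 21.5 ± 3.4 to 7.21 ± 1.5 CPM. PDGFRA, a growth factor receptor beside KIT on chromosome 4, fell from 25.5 ± 1.9 to 10.2 ± 1.9 CPM. The untreated and treated libraries did not overlap for any of these genes.

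Drugs that damage DNA can slow RNA polymerase on long genes, so fold change was set against the length of the gene on the genome. Among 12160 protein-coding genes the median log2 fold change lay between -0.013 and 0.012 in each of 6 classes of length. Genes under 10 kb rose in 13.4% and fell in 9.47%, and the 205 genes over 500 kb rose in 8.29% and fell in 13.7%. Spearman's rho of length and log2 fold change, a description across genes, was -0.027 over the 4 libraries a side, -0.12 in KO11 and 0.067 in KO28. Libraries of the same clone and treatment also differed in sign. The median log2 level of the genes over 500 kb, relative to the mean of each gene over the 8 libraries, was 0.090 in KO28 doxorubicin replicate 1 and -0.084 in replicate 2. The longest 3 genes moved both ways. RBFOX1, a splicing factor, rose by 1.26, PTPRD, a receptor phosphatase, fell by 1.42, and CNTNAP2, an adhesion protein, rose by 0.38. The call of CNTNAP2 was lost without any 1 of the 4 KO28 libraries (0.25 to 0.40).

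TRPM channels were sparse, with 3 of 9 listed genes tested, TRPM2 among them, and 1 called. TRPM4, a calcium-activated channel, had 8.18, 7.37, 9.38 and 11.4 CPM untreated and 13.8, 10.3, 16.6 and 17.3 CPM after doxorubicin (0.61, SE 0.17). The groups overlapped, and its call was lost without KO11 doxorubicin replicate 1 (0.54, adjusted p = 0.0606). Of 10 CREB factors and coactivators 1 fell (10%, against 9.14% of all genes tested) and none rose. CREBBP, a histone acetyltransferase, was at 264 ± 15 and 231 ± 38 CPM and was not called (-0.21). It was called without KO11 doxorubicin replicate 1 (-0.29, adjusted p = 0.0303) or KO28 doxorubicin replicate 1 (-0.29, adjusted p = 0.0166). Of 17 genes that the study labels by name, 13 fell and 1, CDKN1A, rose. The study chose at least some of them on these samples, so their count is not independent evidence of a direction.

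The clones were compared with each other through the interaction of clone and treatment. None of the 14513 genes, 0.00%, was called at an adjusted p under 0.05 with limma, and 742 had an unadjusted p under 0.05. The edgeR quasi-likelihood test called 0 genes as well. The number with an unadjusted p under 0.05 depends on single libraries. It was 1517 without KO28 untreated replicate 1 and 455 without KO11 untreated replicate 1. It was 489 without KO11 untreated replicate 2, and also 489 without KO11 doxorubicin replicate 1. With 1 library left out, 0 to 3 genes were called. With 2 libraries per clone and treatment this does not show that the clones respond alike. The smallest p belonged to ENSG00000277048, with log2 fold changes of 1.26 in KO11 and -0.87 in KO28 (difference -2.13, adjusted p = 0.219 with limma). It was called without KO11 doxorubicin replicate 1 (-2.79, adjusted p = 4.44e-06), without KO28 doxorubicin replicate 2 (-2.48, adjusted p = 0.0467) and with a replicate block (adjusted p = 1.51e-05). ZBTB41, a zinc finger gene, differed by 0.85 (adjusted p = 0.693). PPP1R35, a centriole protein, differed by -0.91 (adjusted p = 0.782).

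The question of whether the clones labelled TRPM2 KO respond differently from the Scr clones was addressed by the interaction of genotype and treatment over all 16 libraries. Of 15325 genes, 5 were called, 0.0326%, and 1260 had an unadjusted p under 0.05. The difference was above 0 for 3 of them and below 0 for 2. The edgeR quasi-likelihood test called 9. Values below are on the scale of this fit, and the direction is that of the labels. TRPM2 reads, counted per gene, were higher in the untreated KO than in the untreated Scr libraries and do not test those labels, as given above.

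TP53I3, a p53-induced quinone reductase, gave the smallest p. In the KO clones it had 19.01, 14.2, 14.4 and 19.7 CPM untreated and 77.9, 68.2, 55.0 and 65.3 CPM after doxorubicin. In Scr13 it had 15.9 and 14.6 CPM untreated and 23.5 CPM in both treated replicates. In Scr16 its treated replicates had 12.7 and 22.7 CPM, and its log2 fold change was -0.07. Every treated KO library was thus above every Scr library, with log2 fold changes of 1.92 in KO and 0.26 in Scr (difference 1.67, SE 0.23, adjusted p = 0.000715 with limma). No other gene of the 3 lists of p53 coding targets was called in this test. CDKN1A had log2 fold changes of 2.43 in KO and 2.57 in Scr (difference -0.14, adjusted p = 0.875). RRM2B, also not called, had 1.94 in KO and 1.18 in Scr (difference 0.76, adjusted p = 0.0776). The differences of PLK2 (0.81, adjusted p = 0.281) and BBC3 (-0.49, adjusted p = 0.415) went opposite ways, all with limma.

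PLK1 had 121, 137, 143 and 120.1 CPM in the untreated Scr libraries. It had 118, 117, 163 and 161 CPM in the treated Scr libraries, all above the treated KO libraries (70.1 to 104 CPM). Its log2 fold change was -0.63 in KO and 0.09 in Scr, where the clones had opposite signs, -0.13 in Scr13 and 0.30 in Scr16 (difference -0.72, SE 0.13, adjusted p = 0.0312). The PLK1 difference was -0.96 without Scr13. CCNB1 was not called in this test (-0.67, adjusted p = 0.0776). SLIT1, a secreted axon guidance cue, fell by 0.30 in KO and had a log2 fold change of 0.40 in Scr (difference -0.70, SE 0.13, adjusted p = 0.0312). CXCL12 had 0.12, 0.51, 0.47 and 0.33 CPM in the treated Scr libraries, the first of them under the 3-read floor of its library (0.178 CPM), against 7.43 to 14.1 CPM in the treated KO libraries (difference 1.99, SE 0.37, adjusted p = 0.0396). Every KO library had at least 2.33 CPM of CXCL12. Among Scr libraries only Scr13 untreated replicate 2 (1.04 CPM) and Scr16 untreated replicate 1 (1.80 CPM) reached 1 CPM. CXCL12 thus met a filter at 1 CPM mainly through the KO clones, where it is high, so no weight is placed on its call. With no filter its adjusted p was 0.182 with limma. The size of the CXCL12 difference depends on the pseudocount and the test. It was 2.36 with a pseudocount of 0.5, where the call was lost (adjusted p = 0.0504 with limma), 1.07 with a pseudocount of 5 and 3.23 with edgeR. C7, a component of complement, went from 172, 173, 188 and 198 CPM to 328, 359, 396 and 384 CPM in the KO clones. Its log2 fold change was 1.00 in KO and 0.41 in Scr (difference 0.59, SE 0.11, adjusted p = 0.0416). The C7 call was lost with a pseudocount of 0.5 (adjusted p = 0.0504 with limma). It was also lost with the deposited normalized values (adjusted p = 0.0534 with limma), with a difference of 0.59 in both settings.

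The 5 calls depend on the clones in the test. Without the clone KO11 none of them passed (adjusted p 0.136 to 0.323), with differences of 1.51 for TP53I3, 1.97 for CXCL12, 0.60 for C7, -0.80 for SLIT1 and -0.62 for PLK1. TP53I3 passed without each other clone. CXCL12 and C7 were lost without each of the 4 clones. PLK1 was lost without Scr16 (-0.50, adjusted p = 0.603) and without KO28 (-0.83, adjusted p = 0.160), and SLIT1 without Scr16 (-0.65, adjusted p = 0.224) and without KO28 (-0.62, adjusted p = 0.3998), all with limma. With no clone term PLK1 and C7 were lost (adjusted p = 0.124 for both). PLK1, SLIT1, CXCL12 and C7 were each lost without at least 6 single KO libraries, as given in the closing section. With no filter on low values the differences were the same to 2 decimals and none of the 5 passed. The adjusted p was then 0.0723 for TP53I3, 0.133 for SLIT1, 0.182 for CXCL12, and 0.205 for both PLK1 and C7 (limma).

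**Figure D5:**
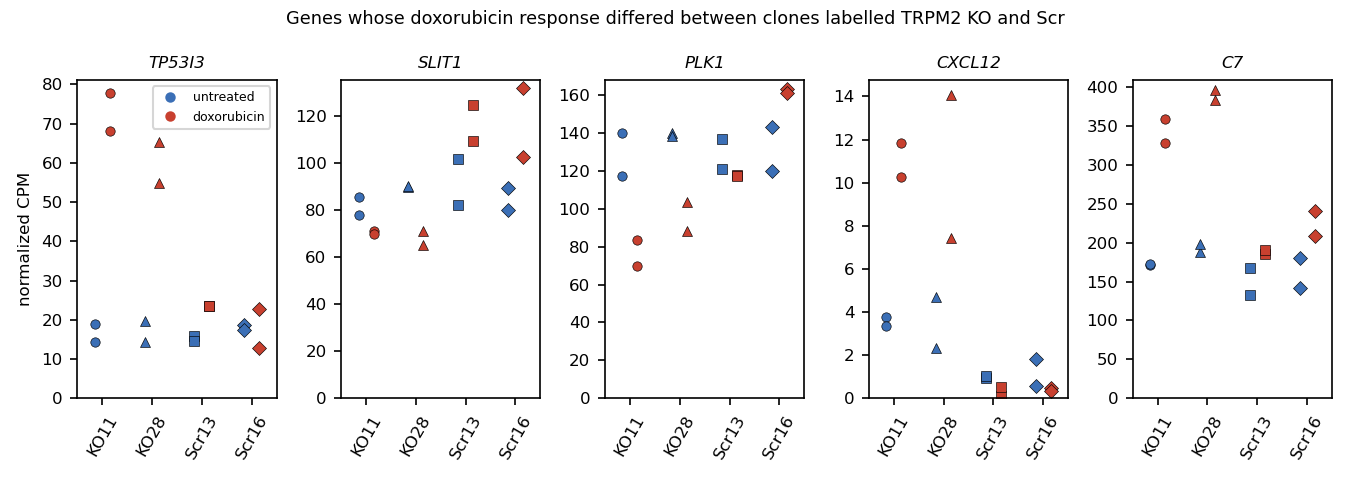
Normalized CPM (y axis, from 0) of the 5 genes whose doxorubicin response differed between the clones labelled TRPM2 KO and the Scr clones, by clone, with blue for untreated and red for doxorubicin and 1 point per library. TP53I3 is above 50 CPM only in the 4 treated KO libraries, and CXCL12 stays under 2 CPM in the Scr libraries.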

How the data were processed

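RNA from SH-SY5Y clones was sequenced as poly(A)-selected libraries. The submitters' processing notes name bcl2fastq, HISAT2 2.1.0, HTSeq, edgeR and GRCh38. The deposited signal is gene counts that the authors divided by effective library size (normalized CPM). Whole reads were recovered for 100% of values, within 0.01 read. Deposited columns of the authors' fold changes and p-values were not used.

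Genes with at least 1 CPM in at least 4 of the 8 KO libraries were tested with limma 3.58.1 (R 4.3.3) on log2(TMM-normalized CPM + 1), with clone as a block and Benjamini-Hochberg adjustment, so that fold changes of low genes are understated. Interaction terms compared clones and genotypes. A count test had been planned as an alternative and was run on the recovered reads with edgeR 4.0.16 and DESeq2 1.42.0. Reads per library give the depth. Positions are GENCODE on GRCh38.

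The members and gene lists were chosen with earlier results of these data known. Named genes were TRPM2, genes the study labels, the 10 largest rises and falls with a mean of at least 5 CPM, up to 4 called genes of largest change and 2 of highest level in each list, the leading interaction terms and the longest 3 genes. CKS2 came from the promoter rule and ISL1 from the cell type markers. Some genes that the rule names are not reported here. PMAIP1 and APAF1 were chosen after their values were seen. Scripts were tested on simulated data.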

Additional observations from a re-analysis of the deposited data

Results flagged for a closer look

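In 11 of 260 groups of 4 libraries (4.23%), 1 library lay far from the other 3 by Dixon's test, which chance does in about 1 of 20 groups. Of the 11, 4 were KO11 untreated replicate 2. In that library GDF15 was at 3.87 CPM (others 7.68 to 8.16), CHGA at 26.5 CPM (others 1.21 to 2.597), DDC at 94.7 CPM and ENSG00000274442 at 3.45 CPM. Among the other untreated libraries, PLK1 was at 117 CPM in KO11 replicate 1 and LDLRAD4 at 24.6 CPM in KO28 replicate 1. Among the treated libraries, KO11 replicate 1 had INPP5D at 86.2 CPM and H2AC14 at 1.27 CPM, and KO11 replicate 2 had CCN1 at 11.2 CPM. KO28 doxorubicin replicate 2 had ISL1 at 142.5 CPM and HAND2 at 1530.5 CPM.

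The response to doxorubicin differed between the clones labelled TRPM2 KO and the Scr clones in the interaction test for 5 genes. The difference of the log2 fold changes, KO minus Scr, was 1.67 for TP53I3, 1.99 for CXCL12, 0.59 for C7, -0.70 for SLIT1 and -0.72 for PLK1. CXCL12 met a filter at 1 CPM mainly through the KO clones, as given above.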

How the results depend on the processing

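The count of 2873 genes changed by doxorubicin was 1051 with KO28 alone, 1673 at an adjusted p under 0.01 and 346 with a change of at least 2-fold. Leaving out 1 library gave 2076 to 2957. The other settings gave counts within 1.5 times, from 1937 with no filter on low values to 3005 with DESeq2. With a replicate block it was 2922, of which 2807 were among the 2873. Libraries with the same replicate number did not deviate together (correlation -0.044 in KO11 and 0.039 in KO28), so the numbers do not pair them. The clone difference gave 4 calls with the replicate block and 0 to 3 without 1 library. The genotype difference, 5 genes, gave 9 with edgeR, 4 with the deposited normalized values and 2 with no filter (none of the 5 among them). With a pseudocount of 0.5 it gave 3, with a pseudocount of 5 it gave 26, with the replicate block 25 and with no clone term 3. It gave 0 without clone KO11, 10 without Scr13, 1 without Scr16, 1 without KO28 and 1 to 4 without 1 KO library. Single Scr libraries were not left out. Of the 8 KO libraries, leaving out 1 ended the call in 8 cases for C7 and in 6 each for CXCL12, PLK1 and SLIT1. ATR, not called, turned to -0.038 with KO11 alone. The cause of these changes was not tested. Among named genes 1739 values kept direction and call, 61 lost the call and 7 gained it. Depth limits genes near 1 CPM.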

Other observations

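Of 397 lincRNA genes tested, 40 rose and 7 fell, with a median log2 fold change of 0.11. Of 520 antisense genes, 37 rose and 7 fell. Of 565 processed pseudogenes, 7 rose and 12 fell, and of 75 transcribed processed pseudogenes none rose and 3 fell. Of 171 transcribed unprocessed pseudogenes, 14 rose and 1 fell. Over all 14513 genes tested, 10.7% rose and 9.14% fell. Protein-coding genes rose in 1404 and fell in 1285 of 12160. The shares of genes called in these classes were not tested against each other, and antisense counts depend on the strand setting, which is not given in the sources used here.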
